A study of Mus musculus with 8 samples.

Results

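The p300 peaks listed in neurons only are 235 of the 965 peaks in the p300 list of neurons made from mouse immortalized multipotent otic progenitors (iMOPs), a cell line with properties of inner ear progenitors. They are the neuron p300 peaks that share no base with any of the 3144 peaks in the p300 list of proliferating iMOPs, so they made up 24.4% of the neuron list, and the other 730 peaks were listed in both states. The 6 peak lists of the study hold 26724 peaks, and the lists for CHD4 and H3K4me3, which the choice of members did not use, are the basis of the comparisons. All cells were wild type. The neurons were iMOPs kept in Neurobasal medium with 1 µM K03861, a CDK inhibitor, and the proliferating iMOPs were kept with 20 ng/ml bFGF. CUT&Tag, in which an antibody tethers a transposase that cuts and tags the DNA nearby, was made with 500000 cells and 1 library per antibody and state, for p300, CHD4, H3K4me3 and IgG. Members were chosen by the positions of the peaks in the 2 p300 lists, so their p300 values are a description. The 2 IgG libraries were not used here and no background level can be set against the shares. As each group is 1 library, differences between neurons and proliferating cells could not be checked over replicates, and no test was made. Exact (Clopper-Pearson) 95% intervals of shares cover counting error only, since peaks are not replicates, and the read depth behind the lists is unknown.

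p300 is a histone acetyltransferase that is recruited by transcription factors to enhancers and promoters, and acetylation by p300 marks active elements. CHD4 is the ATPase of NuRD, a complex that moves nucleosomes and removes acetyl groups from histones, so both proteins act on the same kind of elements with opposite effects on acetylation. H3K4me3 is a mark of active or poised promoters. In the developing inner ear, progenitors leave the cell cycle and become the spiral and vestibular ganglion neurons or the sensory epithelium, with changes in enhancer use.

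The promoters of 34 protein-coding genes and 14 long non-coding RNA genes lay entirely within neuron-only p300 peaks. The RefSeq promoter table (GRCm38.p6, the assembly of mm10) held 17492 of 21887 protein-coding genes and 34 of the 42 protein-coding genes (0.192% of all) counted with a start within 1 kb of such a peak. For genes not in the table, either annotated end was counted as a start. The 6 promoters shown, each 250 bases before to 50 after the start, were taken to show how unlike these regions are. Btbd17 and Otoa had no H3K4me3 in neurons. Celsr2 and Cbfa2t3 had it and are rich in CpG. H4c17 and H4c18 are histone H4 genes in neighbouring peaks. Capitals mark CCAAT (or ATTGG on the other strand) and GGGCGG (or CCGCCC), and 1 stretch of Cbfa2t3 belongs to both motifs, which overlap there.
Btbd17 (chr11:114795843-114796142, - strand): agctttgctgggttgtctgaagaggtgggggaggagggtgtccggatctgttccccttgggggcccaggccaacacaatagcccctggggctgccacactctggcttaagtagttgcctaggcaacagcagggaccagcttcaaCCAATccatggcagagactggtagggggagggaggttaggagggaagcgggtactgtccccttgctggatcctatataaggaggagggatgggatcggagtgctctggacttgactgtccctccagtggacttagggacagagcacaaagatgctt
Otoa (chr7:121083174-121083473, + strand): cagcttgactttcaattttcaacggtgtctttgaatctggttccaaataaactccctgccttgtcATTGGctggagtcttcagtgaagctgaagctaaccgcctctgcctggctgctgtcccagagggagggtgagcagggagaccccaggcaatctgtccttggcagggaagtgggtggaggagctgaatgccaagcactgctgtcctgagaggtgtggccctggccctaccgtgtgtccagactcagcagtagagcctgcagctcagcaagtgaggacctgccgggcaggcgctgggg
Celsr2 (chr3:108415530-108415829, - strand): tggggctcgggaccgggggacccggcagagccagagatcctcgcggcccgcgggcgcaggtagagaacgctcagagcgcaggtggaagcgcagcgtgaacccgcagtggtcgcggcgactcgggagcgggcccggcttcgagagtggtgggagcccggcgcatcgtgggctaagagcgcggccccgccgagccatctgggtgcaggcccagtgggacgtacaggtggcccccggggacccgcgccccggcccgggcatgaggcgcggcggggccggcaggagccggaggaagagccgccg
Cbfa2t3 (chr8:122678126-122678425, - strand): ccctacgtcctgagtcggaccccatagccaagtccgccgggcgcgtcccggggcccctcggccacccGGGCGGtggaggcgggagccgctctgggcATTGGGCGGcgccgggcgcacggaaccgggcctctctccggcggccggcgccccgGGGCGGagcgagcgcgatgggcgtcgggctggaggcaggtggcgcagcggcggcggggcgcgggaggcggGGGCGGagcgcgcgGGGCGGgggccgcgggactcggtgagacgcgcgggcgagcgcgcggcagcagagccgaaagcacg
H4c17 (chr13:21811496-21811795, + strand): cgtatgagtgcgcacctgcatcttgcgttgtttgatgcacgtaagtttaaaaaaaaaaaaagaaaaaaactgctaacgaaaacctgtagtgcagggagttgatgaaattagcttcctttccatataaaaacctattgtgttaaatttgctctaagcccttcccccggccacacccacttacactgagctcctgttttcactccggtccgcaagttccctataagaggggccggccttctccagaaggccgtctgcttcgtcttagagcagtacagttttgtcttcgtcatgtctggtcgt
H4c18 (chr13:21832148-21832447, - strand): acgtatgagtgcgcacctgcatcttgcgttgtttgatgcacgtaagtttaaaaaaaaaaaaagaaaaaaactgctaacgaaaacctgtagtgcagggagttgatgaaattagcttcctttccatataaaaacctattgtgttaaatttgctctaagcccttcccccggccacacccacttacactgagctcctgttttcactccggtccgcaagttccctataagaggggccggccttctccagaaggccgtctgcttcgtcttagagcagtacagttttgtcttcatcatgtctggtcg

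Cbfa2t3 held 5 copies of GGGCGG and 1 of CCAAT, Btbd17 and Otoa 1 CCAAT each, and the Celsr2, H4c17 and H4c18 windows neither motif. The H4c17 and H4c18 windows had the same base at 298 of 299 aligned positions, after a shift of 1 base, and the windows of H2bc23 and H4bc24 in the same pair of peaks were identical at 300 of 300. Reads from these copies can be placed at either one, so their values are uncertain. Over the 34 coding promoters, GGGCGG was present in 20 (58.8%, interval 40.7 to 75.4), against 46.3% of all promoters in the table, and CCAAT in 17 (50%, 32.4 to 67.6), against 39.0%. The E-box CANNTG was in 25 (73.5%, 55.6 to 87.1), against 68.8%, and its form CAGCTG in 5 (14.7%), against 15.1%. CACGTG and the CRE motif TGACGTCA were in 0 of 34, which allows a share of up to 10.3%, against 7.90% and 2.34% of all promoters, and the AP-1 motif TGANTCA was in 1, against 7.08%. Each motif was searched on both strands, CANNTG includes CAGCTG and CACGTG, and all intervals held the share of all promoters. The 34 promoters lie in 25 peaks, and some windows overlap or are copies of each other. They do not count separately, so the intervals are too narrow. A missing motif says only that these letters are not in the window.

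The promoters differed among themselves by mark. The CpG ratio, the number of CpG over that expected from the bases in the window, had a median of 0.807 over the 34, against 0.576 over all promoters. It was 0.870 for the 23 with neuron H3K4me3 and 0.280 for the 11 without it. Among the 23, the 8 histone promoters held GGGCGG in 1 and CCAAT in 6, while the other 15 held GGGCGG in 13 and CCAAT in 6. The histone windows include overlapping ones and the identical windows of H2bc23 and H4bc24, so the 8 do not count separately. The Btbd17 promoter had the lowest ratio, 0.127, and that of Cbfa2t3 the highest, 1.09.

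CHD4 was listed at nearly every neuron-only p300 peak in neurons and at about 1 of every 2 in proliferating cells. A neuron CHD4 peak overlapped 234 of the 235 (99.6%, 97.7 to 99.99), against 99.7% of all neuron p300 peaks. The exception lay in the body of Gmppa, a gene that regulates GDP-mannose synthesis, at chr1:75441301-75446900, and was the 14th strongest of the 235. A proliferating CHD4 peak overlapped 116 of the 235 (49.4%, 42.8 to 55.9) and 727 of the 730 peaks listed in both states (99.6%, 98.8 to 99.9). The share over all 965 neuron p300 peaks was 87.4%. The 2 intervals lie far apart. By the rule, however, the 730 all overlap a proliferating p300 peak and the 235 overlap none. Of the 4919 proliferating CHD4 peaks, 2856 overlapped proliferating p300, and how much of the gap follows from the choice was not tested. In the stronger 50% of the list, 43 of 77 neuron-only peaks had proliferating CHD4 (55.8%, 44.1 to 67.2), against 405 of 405 of both states. In the weaker 50% it was 73 of 158 (46.2%, 38.3 to 54.3), against 322 of 325 (99.1%). The neuron-only share depends on list length: with the proliferating p300 list trimmed to its 965 strongest peaks, 499 peaks were neuron-only and 75.6% of them had proliferating CHD4. With the stronger 50% of the proliferating CHD4 list, it was listed at 20.0% of the 235.

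**Figure D1:**
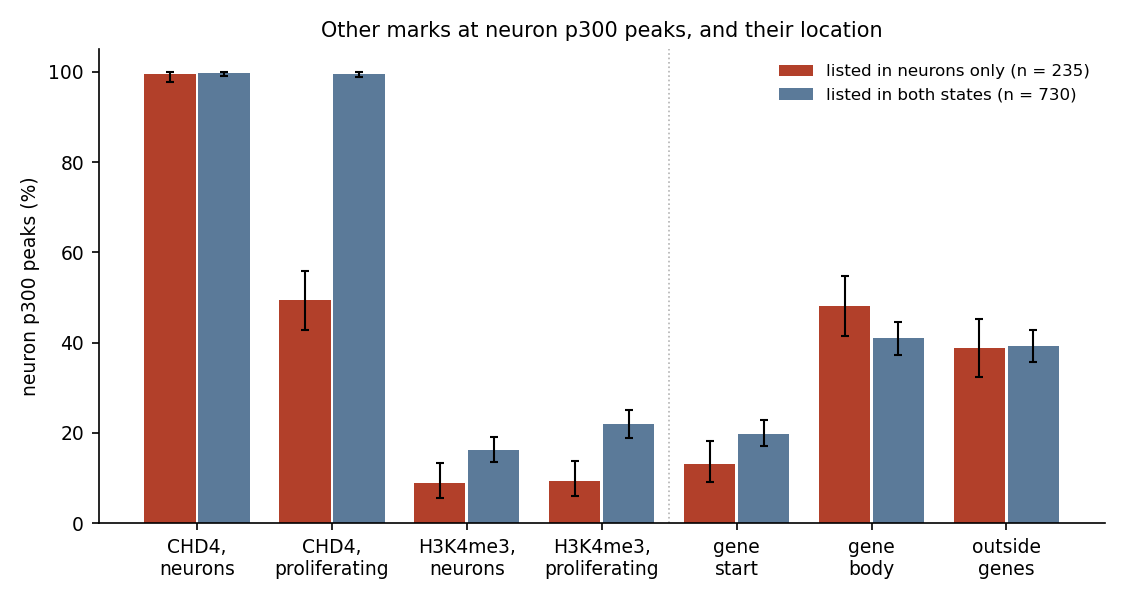
Share of neuron p300 peaks (y axis, percent) that overlap each other list or lie at each kind of location (x axis), for the 235 peaks listed in neurons only and the 730 listed in both states. Bars are shares and lines exact 95% intervals. The groups lie farthest apart for proliferating CHD4, at 49.4% and 99.6%, and by the rule only the 730 overlap proliferating p300.

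Where proliferating CHD4 was listed, it was narrower and of lower rank than at peaks listed in both states. A percentile of signal is the place of a peak in its own list, with 100 the strongest, since the scale of the deposited signal is unknown. The CHD4 peaks at neuron-only p300 peaks had a median percentile of total signal of 82.4 in the neuron CHD4 list and 45.1 in the proliferating CHD4 list. The values at p300 peaks of both states were 89.5 and 87.9. By the rule, only the peaks of both states overlap proliferating p300. Proliferating CHD4 peaks with p300 in neither state had a median percentile of 25.5, and those with p300 in proliferating cells only 61.2. How much of the contrast in rank and width follows from the choice was not tested. Widths followed the same order, with medians of 6025 bp in neurons and 3225 bp in proliferating cells at neuron-only peaks, and 7500 bp and 4550 bp at peaks of both states. Within a location, the neuron CHD4 peak was a median of 1.95 times as wide as the proliferating one (range 0.705 to 30.4, n = 116), and 1.44 times at peaks of both states (n = 725). The neuron lists have wider CHD4 peaks in general, with a median of 5200 bp in neurons and 3400 bp in proliferating cells.

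**Figure D2:**
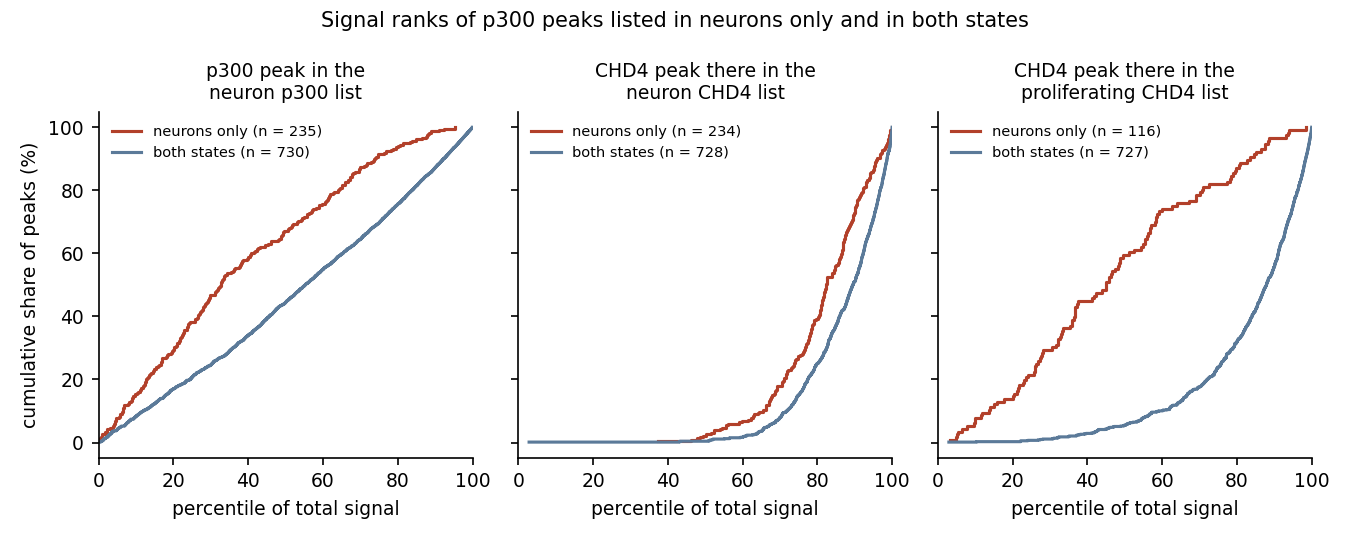
Cumulative share of peaks (y axis, percent) by percentile of total signal within a list (x axis), for the p300 peak, the neuron CHD4 peak there and the proliferating CHD4 peak there, in p300 peaks listed in neurons only and in both states. The curves are farthest apart for proliferating CHD4, with medians of 45.1 and 87.9, and by the rule only peaks of both states overlap proliferating p300.

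The position of highest p300 signal was often that of CHD4. It shared at least 1 bp with the position of highest signal of a neuron CHD4 peak at 129 neuron-only peaks (54.9%, 48.3 to 61.4). For peaks of both states the number was 415 (56.8%, 53.2 to 60.5), and the shares do not differ beyond counting error. With a proliferating CHD4 peak it did so at 49 of the 235 (20.9%, 15.8 to 26.6) and 316 of the 730 (43.3%, 39.7 to 47.0). Among the 116 neuron-only peaks with any proliferating CHD4 the 49 made up 42.2% (33.1 to 51.8), close to that share, so the lower share over the 235 goes with the peaks that had none. Around the p300 maximum, proliferating CHD4 covered 47.7% of neuron-only peaks at the maximum itself and 4.26% and 3.40% at 5000 bp on either side. Neuron CHD4 covered 99.6% at the maximum, and 27.7% and 23.4% at those distances.

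**Figure D3:**
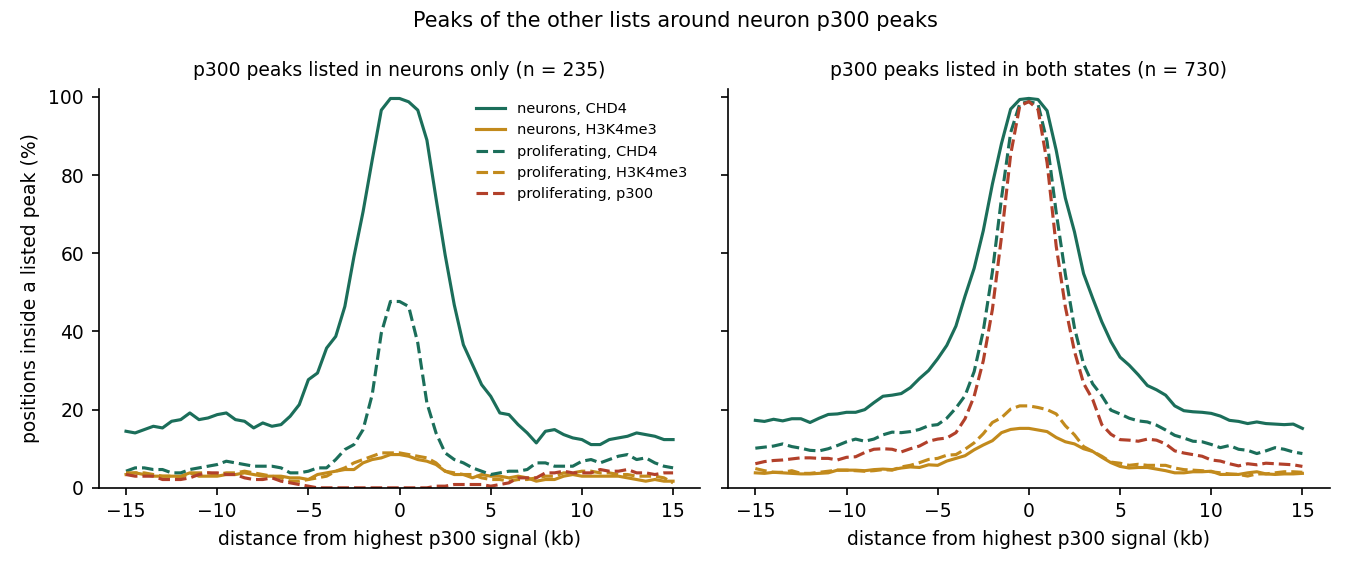
Share of positions inside a peak of each other list (y axis, percent) by distance from the highest p300 signal (x axis, kb), around p300 peaks listed in neurons only and in both states. Proliferating CHD4 is listed at the maximum of 47.7% of neuron-only peaks and 98.8% of peaks of both states; the absence of proliferating p300 at the left is set by how the peaks were chosen.

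The 119 neuron-only peaks without proliferating CHD4 were mostly far from any. For 118 of them the gap to the nearest proliferating CHD4 peak had a median of 47050 bp (800 to 2380450), with 1 within 1 kb and 11 within 5 kb. The last lay on an unplaced sequence. These peaks had neuron CHD4 at a median percentile of 78.4, against 86.2 for the 116 with proliferating CHD4. Their own p300 percentile was 31.1, against 36.1.

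The same question was asked from the CHD4 lists. Of 234 neuron CHD4 peaks that overlapped a neuron-only p300 peak, 122 (52.1%, 45.5 to 58.7) overlapped a proliferating CHD4 peak. The share over all 4599 neuron CHD4 peaks was 67.4%, and over 2121 neuron CHD4 peaks with p300 in neither state it was 36.3% (34.3 to 38.4). The median percentile was 82.3 for the 234 and 34.9 for the 2121. Within the stronger 50% of neuron CHD4 the shares were 53.5% (46.8 to 60.1, n = 228) and 44.9% (41.1 to 48.8, n = 652), and their intervals overlap. Of the 2063 proliferating CHD4 peaks without proliferating p300, 114 (5.53%, 4.58 to 6.60) overlapped a neuron-only p300 peak. Any neuron p300 peak was overlapped by 117 of the 2063 (5.67%, 4.71 to 6.76). The 2856 with proliferating p300 overlapped any neuron p300 peak in 720 cases (25.2%, 23.6 to 26.8). The 114 had a median percentile of 44.9, and the 1946 with p300 in neither state 25.5.

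Few neuron-only p300 peaks carried H3K4me3. It was listed in neurons at 21 of the 235 (8.94%, 5.62 to 13.3), against 14.4% of all neuron p300 peaks and 118 of the 730 of both states (16.2%, 13.6 to 19.0). In proliferating cells it was listed at 22 (9.36%, 5.96 to 13.8), against 18.9% and 160 of the 730 (21.9%, 19.0 to 25.1). Over the whole list and all locations together, the intervals of the 2 groups of peaks do not overlap, in neurons by a narrow margin. In the stronger 50% of the list they do, with neuron H3K4me3 at 6.49% (2.14 to 14.5) against 11.9% (8.87 to 15.4) and proliferating H3K4me3 at 7.79% (2.91 to 16.2) against 17.3% (13.7 to 21.3). In the weaker 50% they do not, with 10.1% (5.90 to 15.9) against 21.5% (17.2 to 26.4) in neurons and 10.1% (5.90 to 15.9) against 27.7% (22.9 to 32.9) in proliferating cells. In all 16 had the mark in both states, 5 in neurons only, 6 in proliferating cells only and 208 (88.5%) in neither. Of the 21 with neuron H3K4me3, 16 thus had it in proliferating cells too, where p300 was not listed.

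The 5 with H3K4me3 in neurons only lay within Trim62, a ubiquitin ligase gene, near Gm40363, at the start of Cbfa2t3, a transcriptional corepressor of the ETO family, and within Tspan18, a tetraspanin, and Spns2, a transporter of sphingosine-1-phosphate. Their H3K4me3 peaks stood at percentile 59.6 of the neuron H3K4me3 list at Trim62 and 72.9 at Cbfa2t3. At Gm40363, Tspan18 and Spns2 they stood at percentiles 0.409, 2.28 and 7.14, close to the bottom of the list. The 6 with H3K4me3 in proliferating cells only lay at Btbd17 and Gpr142, Eapp, Zbtb20, Mcf2l, Alyref2 and Sh3pxd2a. Their H3K4me3 percentiles in the proliferating list ran between 8.22 at Sh3pxd2a, a podosome scaffold gene, and 65.3 at Btbd17. The strongest 6 with neuron H3K4me3 were those at Celsr2, Trim62, Gm40363, Cbfa2t3, Rasl11b and the histone genes H2bc23, H2ac23 and H4c17.

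Most neuron-only p300 peaks lay away from gene starts. Within 1 kb of the start of a protein-coding gene, or of either end of a gene not in the promoter table, were 31 (13.2%, 9.14 to 18.2). This was against 18.2% of all neuron p300 peaks and 145 of the 730 of both states (19.9%, 17.03 to 22.9). A coding promoter of the table lay in 25 of the 31, and the rest may lie at the far end of a gene. In the body of a gene were 113 (48.1%, 41.5 to 54.7), against 299 (41.0%, 37.4 to 44.6), and outside genes 91 (38.7%, 32.5 to 45.3), against 286 (39.2%, 35.6 to 42.8). These intervals overlap between the 2 groups of peaks. H3K4me3 of either state was listed at 20 of the 31 at starts (64.5%), 6 of the 113 in gene bodies (5.31%) and 1 of the 91 outside genes (1.10%). Proliferating CHD4 did not follow this order: 15 of 31, 55 of 113 and 46 of 91 peaks had it. Within each kind of location, the intervals for neuron H3K4me3 overlap between neuron-only peaks and those of both states. The shares were 51.6% against 65.5% at starts, 3.54% against 4.01% in bodies and 1.10% against 3.85% outside genes. For proliferating H3K4me3 they overlap at starts and in bodies. Outside genes they do not, with 0 of 91 (up to 3.97%) against 7.69% (4.88 to 11.4).

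By p300 signal, which together with the proliferating list chose the peaks, the neuron-only peaks ranked below those of both states. The median percentile of total signal was 32.6 (quartiles 16.7 and 59.0), against 55.2 for peaks of both states. The percentile of highest signal had medians of 47.3 and 50.9. The median width was 3700 bp (1350 to 22250), against 4150 bp. Peaks at starts were the widest, with a median of 4900 bp at percentile 27.9, those in gene bodies had 3750 bp at 31.1, and those outside genes 3200 bp at 39.5.

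The distance to the nearest proliferating p300 peak had a median of 76400 bp. It was at most 1 kb for 1 of the 235, between 1 and 5 kb for 13, between 5 and 50 kb for 76, between 50 kb and 1 Mb for 133, and more for 11, while the unplaced sequence held none. The nearest were peaks in the body of Lmo1, a LIM-only transcriptional regulator, at 850 bp, near Plxna2 at 1150 bp and near Eps8l3 at 1400 bp. All 3 had proliferating CHD4, and the CHD4 peak of Lmo1 in neurons was 17750 bp wide. The farthest were near Ank3, the gene of the axon initial segment scaffold ankyrin G, at 3040300 bp, near the guidance receptor gene Robo1 at 2380550 bp and in Myc at 2333000 bp. On the other side of the rule, a peak at Mroh2a and Hjurp shared only 50 bp with a proliferating p300 peak, and peaks near Ccne1, Dll1 and Gm11232 shared 1150 bp. Of the 235, 14 lay in a neuron CHD4 peak that also overlapped a proliferating p300 peak.

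**Figure D4:**
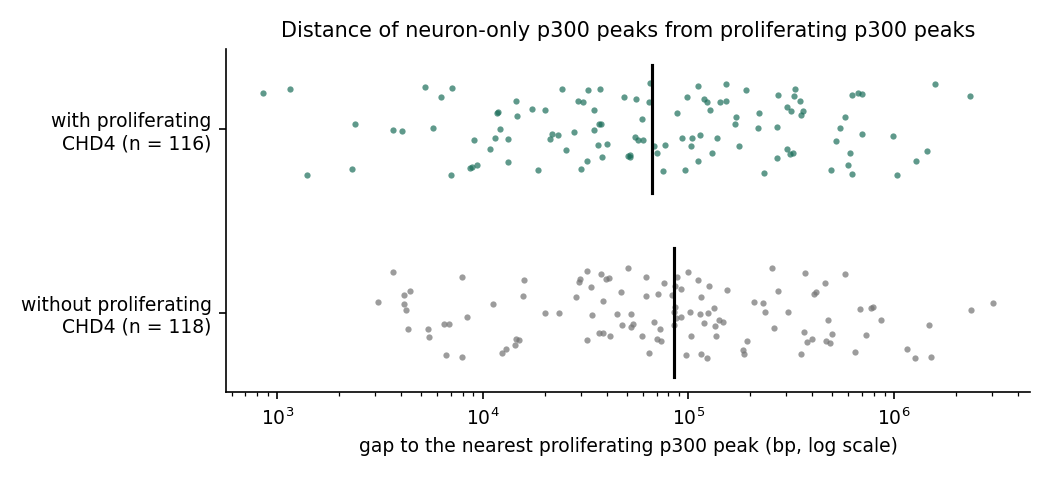
Gap from each neuron-only p300 peak to the nearest proliferating p300 peak (x axis, bp, log scale), for the 116 peaks with proliferating CHD4 and 118 without it; points are peaks, spread vertically for legibility, and vertical lines are medians. The medians are 66675 bp with and 85425 bp without proliferating CHD4, and the ranges overlap almost throughout.

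The 10 strongest neuron-only peaks lay mostly outside genes or in gene bodies. The strongest was at chr9:65192151-65202850, 5119 bp from Igdcc3, a gene of the DCC-like immunoglobulin family, and stood at percentile 95.2 of the neuron p300 list with a width of 10700 bp. It lay in a neuron CHD4 peak at percentile 98.4, and CHD4 and H3K4me3 were not listed there in proliferating cells. The second, at chr11:114793101-114799000 (percentile 92.4), covered the starts of Btbd17, a BTB domain gene, and Gpr142, a G protein-coupled receptor gene. It had H3K4me3 in proliferating cells and CHD4 in neurons. Next came a peak on an unplaced sequence (90.9) and then a peak at chr3:108395201-108417450 (88.8) over the start of Celsr2, a cadherin of the planar cell polarity family. At 22250 bp the Celsr2 peak was the widest of all. The strongest proliferating CHD4 peak there, at percentile 87.4, reached beyond the p300 peak, and another, at 44.9, lay within it.

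Next in order came peaks 305974 bp from Sox5, a transcription factor gene, 174675 bp from the growth arrest gene Gadd45g, and 73079 bp from 1700025G04Rik. The peak in Trim62, that 240908 bp from the prokineticin gene Prok2, and that in Rgs3, a regulator of G protein signalling, completed the 10. Of these 10, the peaks near Igdcc3, Btbd17 and Gadd45g and on the unplaced sequence had no proliferating CHD4. The next strongest without it lay in Gmppa, in Tspan18, near Endov, an endonuclease gene, and in Crtc1, a coactivator of CREB. Their p300 percentiles were 80.5, 80.2, 78.8 and 76.2. The widest peaks after Celsr2 and Igdcc3 were those in Lrrc15 (10500 bp) and Rgs3 (10150 bp) and at Rasl11b (8800 bp). The narrowest lay near Entpd6 (1350 bp), with 3 of 1700 bp at Ubxn6 and Hdgfl2, near Sox4 and near Btbd3.

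**Figure D5:**
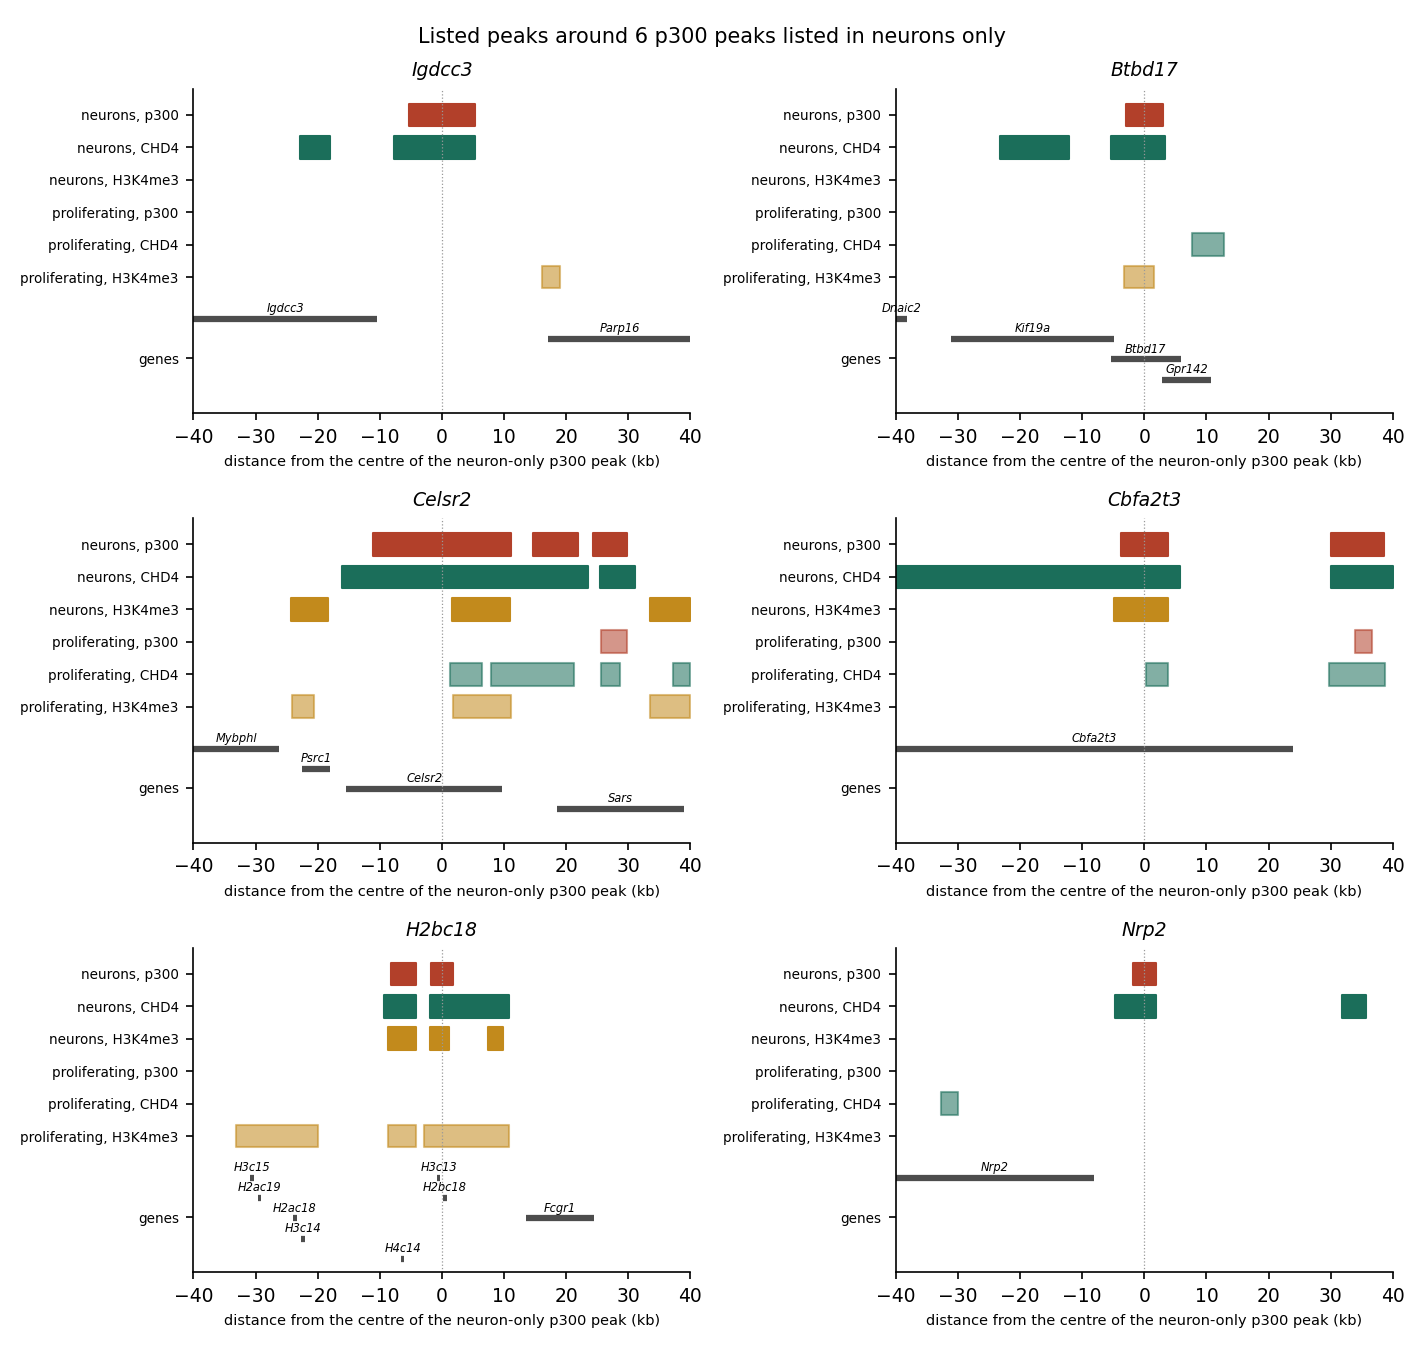
Listed peaks of the 6 libraries (rows) and protein-coding genes within 40 kb of 6 neuron-only p300 peaks (x axis, distance from the peak's centre, kb), with neurons in dark and proliferating cells in light colours. Proliferating CHD4 is listed under the central peak at Celsr2 and Cbfa2t3 and not at Igdcc3, Btbd17, H2bc18 and Nrp2.

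At gene starts, the strongest after Btbd17 and Celsr2 were at Trhr2, a receptor for thyrotropin-releasing hormone, and Eapp, an E2F-associated protein gene, at percentiles 71.7 and 71.6. Cbfa2t3 followed at 66.8, and Otoa, the gene of otoancorin, a protein that anchors the inner ear's acellular gels, at 66.0. The peak at Otoa lay at chr7:121082251-121085950, in a neuron CHD4 peak at percentile 91.7, with no proliferating CHD4 and no H3K4me3 in either state. Rasl11b, a Ras-like GTPase gene, stood at percentile 65.0, Zc3h3 at 63.0, Adamtsl2, an extracellular matrix gene, at 54.9, and Mcf2l at 50.9. For Trhr2 and Zc3h3 either annotated end was counted as a start, so their peaks may lie at the far end. Proliferating CHD4 was listed at Celsr2, Cbfa2t3, Rasl11b, Adamtsl2 and Mcf2l and not at the other 5 of these 10. At Rasl11b it stood at percentile 5.51, with neuron CHD4 at 91.3.

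Histone genes lay at 4 of the 31 neuron-only peaks at starts, a group named here after its values were seen. Of 58 histone H2A, H2B, H3 and H4 cluster genes, 9 (15.5%) had a neuron-only p300 peak at the start, in 4 peaks, against 0.192% of all protein-coding genes. The genes are clustered and share peaks, so they do not count separately. Those on chromosome 3 covered H4c14 (percentile 21.5) and H3c13 with H2bc18 (percentile 21.4). Those on chromosome 13 covered H2bc23, H2ac23 and H4c17 (percentile 37.7) and H4c18, H2ac24 and H4bc24 (percentile 27.3). All 4 had H3K4me3 in both states and CHD4 in neurons, and none had CHD4 in proliferating cells. Of the 58 genes, CHD4 lay at the start of 49 in neurons (84.5%, against 8.66% of all protein-coding genes). In proliferating cells it lay at 43 (74.1%, against 10.7% of all). A p300 peak of both states lay at 11 (175 of all 21887) and a proliferating p300 peak at 41 (7.56% of all). The near-identical copies described above limit what can be read from the chromosome 13 peaks, and the part of read placement in these values was not tested.

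Several genes held more than 1 neuron-only peak. In all 43 of the 235 fell into 18 groups with gaps of at most 100 kb. Within Tex14, a gene of germ cell bridges, and at D430042O09Rik there were 4 each, with proliferating CHD4 at 1 of each 4. At Cbfa2t3 and Acsf3, in Tspan18, and at Sort1, Celsr2 and Sars there were 3 each. Proliferating CHD4 was listed at 1 of the 3 at Cbfa2t3 and Acsf3, at 0 of the 3 in Tspan18 and at all 3 at Sort1, Celsr2 and Sars, so neighbouring peaks did not always share it. Chromosome 5 held most, with 28 of the 235 (11.9%), against 58 of the 730 of both states (7.95%).

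A neuron-only peak lay in the body or within 50 kb of 430 of 21887 protein-coding genes (1.96%), and a peak of both states did so for 1281 (5.85%). Of the 430, 306 had no peak of both states that near. No gene of the 16 lists had a neuron-only peak within 1 kb of its start. The Myc span begins at chr15:61985341 and the peak in it at 61986351, just past 1 kb from that end. Axon guidance genes were among the neighbours: 5 of 31 semaphorins, plexins and neuropilins, 3 of 23 Slit, Robo and netrin genes, and 2 of 22 Eph receptors and ephrins. Peaks of both states lay near 6, 4 and 2 genes of these lists. Of the genes near neuron-only peaks, 4, 1 and 2 had no peak of both states that near. Within 10 kb, the neuron-only counts were 2, 3 and 1. The counts are small and were not adjusted for the length of the genes, and whether these lists stand apart was not tested.

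Among the guidance ligands, Slit1, Slit3 and Draxin, whose products repel growing axons, had a neuron-only peak in the gene body. These stood at percentiles 6.74, 13.5 and 21.7, and proliferating CHD4 was listed at none of the 3. The genes were not all without other p300: 4 peaks of both states lay near Slit1, 1 near Draxin and 0 near Slit3. The nearest proliferating p300 peak was 5400 bp from the neuron-only peak in Slit1 and 8350 bp from that in Draxin. The peak nearest to Sema7a, a membrane-anchored semaphorin, was 29785 bp away, without proliferating CHD4. Those counted for Sema4g and Sema6b lay at the starts of Lzts2 and of Ubxn6 and Hdgfl2, and that for the ephrin gene Efna1 at Trim46 and Krtcap2. All 3 had H3K4me3 and CHD4 in both states, and covered the starts of those other genes. Among the receptors, Nrp2, a coreceptor of class 3 semaphorins, had the strongest, at chr1:62824951-62828700, 6258 bp from the gene. It stood at percentile 72.9 of total and 97.2 of highest signal, in neuron CHD4 at 84.7, without CHD4 in proliferating cells. The peak 8190 bp from Plxna2, a semaphorin receptor, stood at percentile 25.8 with proliferating CHD4 at 86.4, and that in Ephb1 at 5.34 with none.

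In the signalling lists the counts were 0 to 2 genes a list, beside 1.96% of all protein-coding genes, too few to set a list apart. Notch had 2 of 23 genes, the ligand gene Dll4 (22733 bp) and Rbpj, the DNA-binding effector (29028 bp), with proliferating CHD4 at the peak near Dll4 only. FGF feedback had 1 of 20, the phosphatase gene Dusp5 (25544 bp), Wnt 1 of 33, the receptor gene Fzd9 (18853 bp), and TGF-beta and BMP 0 of 28. The immediate early list had 1 of 26, Fos (35739 bp). Peaks of both states lay near 7, 1, 4, 1 and 4 genes of these 5 lists. MAP kinase phosphatases and signalling inhibitors had 0 of 23 and NuRD subunits 0 of 15, against 4 and 5 near peaks of both states.

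In the neuronal, cell cycle and otic lists the counts were 0 or 1, again beside 1.96% of all protein-coding genes. Neuronal transcription factors had 1 of 32, Insm1 (36730 bp), a zinc finger factor of neuronal and neuroendocrine differentiation, and the neuronal cytoskeleton and axon list 1 of 30, the adhesion gene Cntn2 (13649 bp). Synapse and ion channel genes had 0 of 31. Cell cycle progression had 1 of 30, the replication licensing gene Mcm2 (39073 bp), whose peak lay at the start of Abtb1, and cell cycle exit 0 of 16. Otic progenitor regulators had 1 of 28. This was Myc, with a peak of 2250 bp in the gene body at percentile 4.66, and with CHD4 and H3K4me3 in both states. Peaks of both states lay near 4, 3, 1, 4, 2 and 4 genes of these lists.

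The labelled states were set against cell type markers by H3K4me3 at gene starts. Of all 21887 protein-coding genes, 29.7% had it in neurons and 37.5% in proliferating cells. The neuronal marker counts below were no higher than these shares, so they do not set the 2 states apart. Of 14 neuronal markers 4 had it in neurons (Tubb3, Map2, Elavl3 and Elavl4) and 3 in proliferating cells, while Dcx, Stmn2, Rbfox3 and Snap25 had none. Of 13 otic progenitor markers 6 had it in neurons and 9 in proliferating cells. For hair cells the counts were 1 and 1 of 12, for glia 2 and 2 of 11, for mesenchyme 3 and 3 of 11, for blood and endothelium 0 and 1 of 11, and for liver 0 and 0 of 10. Of all these markers, Myc was the 1 gene with a neuron-only p300 peak in its body or within 50 kb.

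Annotated miRNAs lay within 2 of the peaks. That at Nek8, Tlcd1 and Rpl23a on chromosome 11 held mir-7653, and that at Krt80 on chromosome 15 held mir-1941. Both peaks were without proliferating CHD4. Their mature forms, from RefSeq with the seed (bases 2 to 8) in capitals, share no seed with each other.
mmu-miR-7653-5p (chr11:78178827-78178848, + strand): uAAGGGGCggacagacagacgg
mmu-miR-7653-3p (chr11:78178866-78178887, + strand): cCCCUACUguuccaccccgccu
mmu-miR-1941-5p (chr15:101369364-101369387, + strand): aGGGAGAUgcugguacagaggcuu
mmu-miR-1941-3p (chr15:101369401-101369421, + strand): cAUCUUAGcaguaucucccau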

How the data were processed

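CUT&Tag peak lists for p300, CHD4 and H3K4me3 in iMOP-derived neurons and proliferating iMOPs were used, 1 library per antibody and state. Each list gives position, total signal, highest signal and its position; these signal values are as the authors deposited them, on a scale no source used here describes, so they rank peaks within a list only. Per the submitters' processing notes, Bowtie2, deepTools, SEACR and mm10 were used; their roles and settings are not given in the sources used here. Per the labels' protocols, paired reads of 150 bp were sequenced. Pooling of libraries into a list is not mentioned in the labels. Coordinates run in steps of 50 bp and are counted from 1.

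Peaks overlapped when they shared at least 1 bp. A percentile is the place of a peak in its own list, with 100 the strongest; where several CHD4 or H3K4me3 peaks overlapped a p300 peak, the strongest was used. Gene spans came from RefSeq (GRCm38.p6, 21887 protein-coding genes), and starts from the RefSeq promoter table, or both annotated ends where a gene was not in it. Gene starts were windows of 1 kb on either side. Python 3.11.15, numpy 2.4.6, pandas 2.3.3, SciPy 1.17.1 and matplotlib 3.10.9 were used. On simulated lists all 965 peaks were classed as planted, 300 of 300 genes at 40 kb were found and 0 of 300 at 60 kb.

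Members, the 16 gene lists (406 genes, all found) and the rule for named genes were chosen with earlier results of these data known. The rule took the 10 strongest peaks, the 10 strongest at starts, the 5 widest and 3 narrowest, the 6 strongest with neuron H3K4me3 and up to 6 with it in neurons only, the 8 strongest without proliferating CHD4, those without neuron CHD4, every list gene within 50 kb, the 5 groups with most peaks, and the 3 nearest to and 3 farthest from proliferating p300. H4c18, the peaks with H3K4me3 in proliferating cells only, the other histone genes, the miRNAs and the motif counts by mark were chosen after their values were seen. Alternatives were another overlap, trimmed lists, other gene windows, numbered chromosomes with X and Y, and, chosen after seeing the data, both annotated gene ends and the stronger 50% of neuron CHD4.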

Additional observations from a re-analysis of the deposited data

How the results depend on the processing

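Of the values recomputed under each alternative, 95 main ones stayed within their counting interval or within 1.5 times, and 32 did not. With the proliferating p300 list trimmed to its 965 strongest peaks, 499 peaks were neuron-only, of which 75.6% had proliferating CHD4, at a median percentile of 38.5 and a median gap of 302325 bp. With the stronger 50% of the CHD4 and H3K4me3 lists, neuron CHD4 was at 97.4% and proliferating CHD4 at 20.0% of the neuron-only peaks. In the stronger 50% of neuron p300 there were 77 neuron-only peaks, 45.5% outside genes, with a median width of 4500 bp and percentile of 67.1; in the weaker 50% the percentile was 22.1 and neuron CHD4 at 100%. With both annotated gene ends 18.7% lay at a start. Within the stronger 50% of neuron CHD4, 44.9% of peaks without p300 had proliferating CHD4.

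Within 10 kb, 200 genes had a neuron-only peak, and 230 genes were the nearest gene of one. Counts within 10 kb were 1 for Eph genes, 2 for semaphorins and their receptors, and 0 for the Notch, FGF, Wnt, AP-1, cell cycle progression, neuronal transcription factor and neuronal cytoskeleton lists. As nearest genes they were 1, 2 and 1 for the Eph, semaphorin and Notch lists, 1 for cell cycle exit, 2 for neuronal transcription factors and 0 for cell cycle progression and neuronal cytoskeleton.

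No paired analysis was possible because each antibody and state had 1 library, and for the same reason leaving out a replicate was not run. Depth is unknown: the neuron p300 list is shorter and its lowest total signal is 68997, against 11491 in the proliferating list on a scale that no source used here describes, and a peak missing from a list is one not listed, not one shown to be absent.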
